A study of Homo sapiens with 36 samples.

Results

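The genes that license replication origins were followed in 6 human colon cancer cell lines treated with JQ1. The set holds MCM2, MCM3, MCM4, MCM5, MCM6, MCM7, MCM10, CDC6, CDT1 and ORC1, chosen by name for their function, and makes up 10 of the 26468 genes in the expression table. All 10 were found by their Entrez number and all 10 passed the filter on low values, so none is left out below. RNA sequencing was done on HCT 116, SW 480, HT-29, COLO 205, HCT-15 and COLO 320 cells in log-phase growth, each an established line from a single tumour. Every line had 3 libraries from cells given DMSO, the solvent, and 3 from cells given 0.5 µM JQ1, both for 24 h, and no other agent or genetic change is named in the labels. JQ1 is a small molecule that keeps BET proteins off acetylated chromatin by filling their bromodomains, and so reduces transcription that depends on them. Nothing in the labels ties the 3 replicates to separate cultures, and the p-values therefore cover only the spread between libraries, which may be technical.

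Licensing is the step in G1 phase that makes a stretch of DNA able to start replication later. The origin recognition complex, whose largest subunit is ORC1, marks the site, and CDC6 and CDT1 then load the ring-shaped helicase built from MCM2 to MCM7 onto the DNA. In S phase MCM10 acts with CDC45 and the GINS complex to turn the loaded ring into a moving helicase. Cells in active growth, such as tumour cell lines, express these genes as part of the programme that precedes DNA synthesis, which E2F transcription factors are known to drive.

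Transcript levels of the licensing genes were lower with JQ1 in nearly every line. Of the 60 combinations of line and gene, 59 were lower with JQ1 and 1 was higher, CDC6 in HCT 116. In 0 of the 60 did the 3 JQ1 libraries overlap the 3 DMSO libraries. Averaged over the lines, MCM5 fell most, by 1.10 on the log2(RPKM + 0.5) scale, which is 2.15-fold. RPKM is the read count scaled to the length of the gene and the depth of the library, and 0.5 is added before the logarithm. MCM2 followed at −0.77, MCM10 at −0.76, ORC1 at −0.69, MCM7 and CDT1 at −0.68 each and MCM3 at −0.61. The smallest average changes were those of MCM6 at −0.54, CDC6 at −0.49 and MCM4 at −0.48. In RNA from whole cultures, fewer cells at the stage that expresses these genes and less RNA per cell cannot be told apart.

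A gene was called when its adjusted p from limma, fitted across all 15542 tested genes, was under 0.05, and such calls were common in these data. On the average over lines 10 of 10 licensing genes were called lower, against 48.3% of all tested genes, and the median change was −0.68 against −0.04 for all genes. By line, 9 of 10 were called lower in HCT 116, where 35.5% of all genes were. In the other lines 10 of 10 were called lower, against 40.1% of all genes in SW 480, 37.3% in HT-29, 38.6% in COLO 205, 35.4% in HCT-15 and 37.2% in COLO 320. The 1 call in the other direction fell in HCT 116, where 32.4% of all genes were called higher, and over the average 40.2% of all genes were. All 3 JQ1 libraries lay below all 3 DMSO libraries for 36.3% of tested genes in HCT 116, 39.9% in SW 480, 37.9% in HT-29, 39.3% in COLO 205, 36.9% in HCT-15 and 39.1% in COLO 320. When each cell line counted as 1 observation, so that the spread was that between lines, 10 of 10 were again called lower on average, against 19.9% of all genes. Their adjusted p then ran from 0.00082 for MCM5 to 0.0483 for CDC6.

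The size of the fall set the lines apart more than the count did. The median change of the 10 genes was −1.05 in HT-29, −0.91 in COLO 205, −0.68 in HCT-15, −0.61 in SW 480, −0.50 in COLO 320 and −0.22 in HCT 116, while the median of all genes lay between −0.04 and 0.00 in every contrast. In HT-29, 8 of 10 were called lower by 2-fold or more, against 5.9% of all genes. The corresponding counts were 4 of 10 in COLO 205 (5.63% of all genes), 1 of 10 in SW 480 (4.88%), 1 of 10 in HCT-15 (3.55%), 0 of 10 in COLO 320 (4.66%) and 0 of 10 in HCT 116 (3.14%). On the average MCM5 alone reached that size, as did 1.85% of all genes. When reads recovered from the RPKM steps were scaled to the library total instead, the all-gene median in HCT-15 moved from 0.00 to −0.12, and every licensing gene kept its direction and its call.

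**Figure D1:**
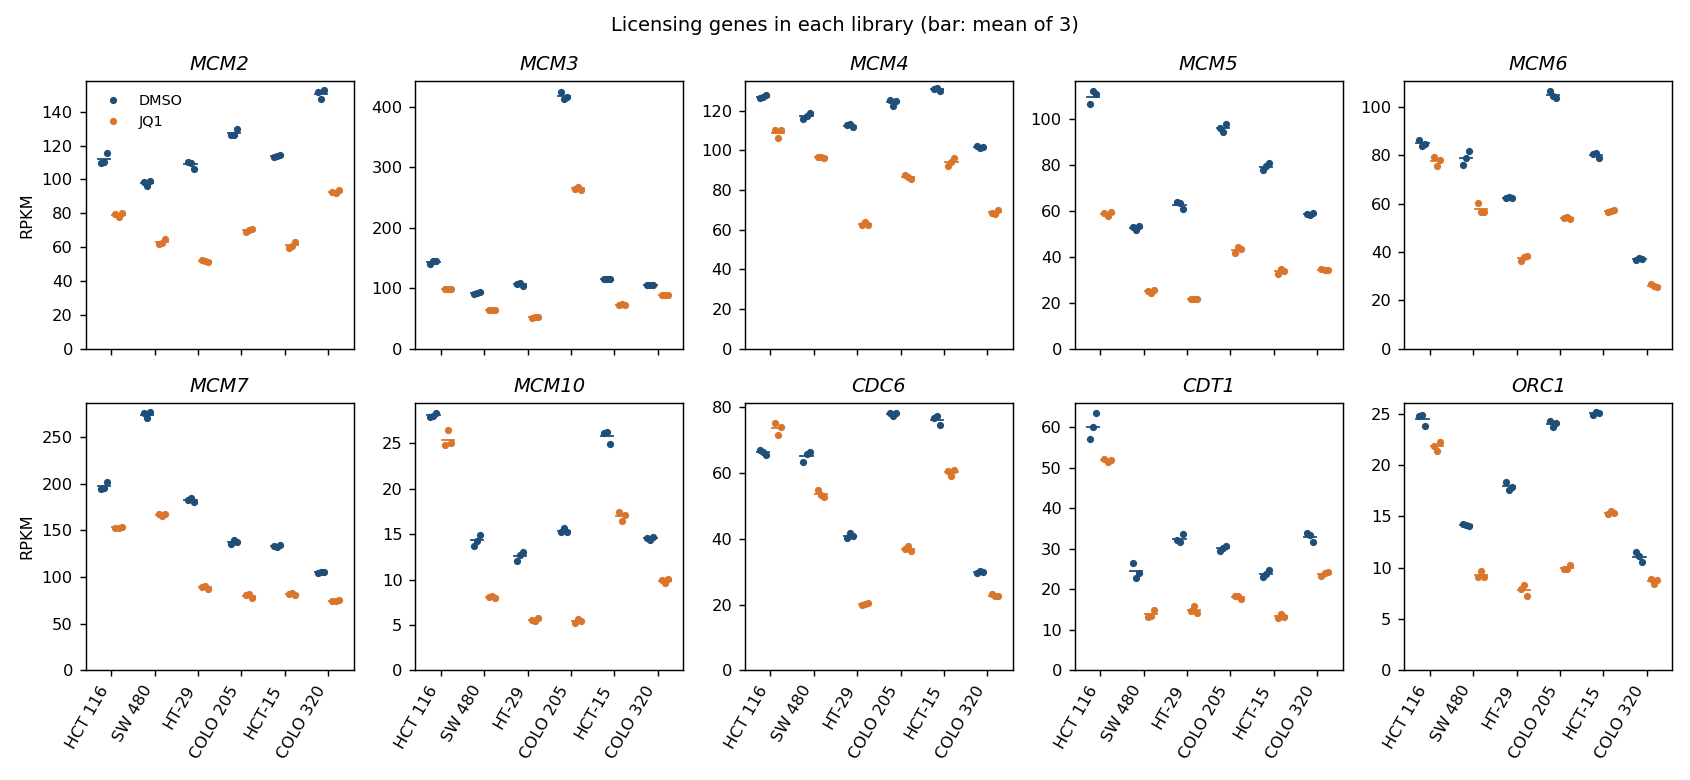
RPKM (linear axis from 0) of each licensing gene in the 3 DMSO and 3 JQ1 libraries of the 6 lines, with points for libraries and a bar for the group mean. JQ1 points lie below DMSO points in every pair of groups but CDC6 in HCT 116, and MCM3 in COLO 205 stands far above the other lines.

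Promoter sequence was read because these genes moved together. RefSeq windows of GRCh38.p14, from 250 bases before to 50 bases after a gene's start, were available for 8 of the 10 genes, with no entry for MCM4 and MCM5. They were searched on both strands for the letters TTTNGCGC or TTTNGCGG, which resemble a site that E2F factors are known to bind, a choice made after the promoters were seen. A match occurred in 7 of the 8, all but ORC1. It occurred in 3.34% of all 35116 windows in the table and in 6.47% of the 11426 tested genes that had one. Because the letters were chosen with these promoters in view, a high count was built in. These shares are a description and no test of E2F. A palindromic stretch counts on both strands, so the 2 matches of MCM2 and the 4 of MCM6 overlap in pairs. The stretches below show where the letters stand in 6 of the genes, 5′ to 3′ on the gene's own strand, with the matching bases in capitals.
MCM2 (chr3:127598393-127598440, plus strand): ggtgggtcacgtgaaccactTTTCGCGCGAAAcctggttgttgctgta
MCM3 (chr6:52284719-52284766, minus strand): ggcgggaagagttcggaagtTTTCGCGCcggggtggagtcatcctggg
MCM6 (chr2:135876502-135876615, minus strand): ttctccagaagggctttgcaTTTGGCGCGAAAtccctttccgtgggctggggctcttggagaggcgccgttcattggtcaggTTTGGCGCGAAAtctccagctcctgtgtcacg
MCM7 (chr7:100101379-100101426, minus strand): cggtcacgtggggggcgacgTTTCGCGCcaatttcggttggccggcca
MCM10 (chr10:13161543-13161587, plus strand): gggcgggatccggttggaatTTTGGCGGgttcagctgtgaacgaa
CDC6 (chr17:40287831-40287908, plus strand): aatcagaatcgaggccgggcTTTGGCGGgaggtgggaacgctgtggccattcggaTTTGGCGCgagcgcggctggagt
In MCM2, MCM3, MCM7, MCM10 and CDC6 a match began within 10 bases of the start, while those of MCM6 began at positions −152 and −90 from it. MCM7 has 3 annotated starts, and the stretch belongs to the one farthest upstream. Its matched letters share a base with a CCAAT box. In CDT1 the letters stood at positions −213 and −27. Among the other letters searched, CCAAT occurred in a window of 6 of the 8 genes, against 42.9% of tested genes and 34.6% of all windows. The E-box CACGTG occurred in 2 of the 8, MCM2 and MCM7, against 12.2% of tested genes and 7.26% of all windows. A match is only a run of letters, and binding was not measured here.

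ORC1, an ATP-binding subunit of the origin recognition complex, was among the less abundant of the 10 genes. In COLO 205 it read 24.3, 23.7 and 24.1 RPKM with DMSO and 9.86, 9.87 and 10.2 RPKM with JQ1. The groups were far apart, and the change was −1.23 ± 0.036 (SE, adjusted p = 2.96e-22, limma), or 2.34-fold lower. In HCT 116 the DMSO libraries read 24.8, 24.9 and 23.8 RPKM and the JQ1 libraries 21.9, 21.3 and 22.2 RPKM. A similar starting level went with a change of only −0.16 ± 0.036 (adjusted p = 0.000179). HT-29 gave −1.15, HCT-15 −0.69, SW 480 −0.58 and COLO 320 −0.32. In DMSO the order ran from HCT-15 (25.0 RPKM), HCT 116 and COLO 205 (24.0), whose neighbours did not differ beyond their spread, through HT-29 (17.9) and SW 480 (14.2) to COLO 320 (11.1).

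CDC6, the ATPase that joins ORC at origins and recruits the helicase with CDT1, gave the 1 increase. Its HCT 116 libraries read 67.0, 66.2 and 65.4 RPKM with DMSO and 75.2, 71.5 and 73.8 RPKM with JQ1. Every JQ1 library was above every DMSO library, and the change was 0.15 ± 0.021 (adjusted p = 3.78e-07, limma), or 1.11-fold. In COLO 205 the same gene read 78.0, 77.4 and 78.3 RPKM with DMSO and 36.9, 37.7 and 36.3 RPKM with JQ1. HT-29 libraries read 40.3, 41.7 and 40.7 RPKM with DMSO and 19.9, 20.2 and 20.4 RPKM with JQ1. These were the 2 lines where CDC6 fell most, by 1.06 and 1.00 on the log2 scale. The remaining lines changed by −0.39 in COLO 320, −0.34 in HCT-15 and −0.28 in SW 480. CDC6 fell in 5 of 6 lines, and its change in HCT 116 differed from that in each of the others, by 0.43 ± 0.030 from SW 480 (adjusted p = 8.5e-13) and by 1.21 ± 0.030 from COLO 205 (adjusted p = 3.2e-23).

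CDT1, the other loading factor, whose protein is destroyed or held by geminin once S phase starts, was highest in HCT 116. There the DMSO libraries read 57.1, 59.9 and 63.5 RPKM, and the JQ1 libraries 52.1, 51.4 and 52.0 RPKM. The mean of 60.2 ± 3.20 RPKM (SD, n = 3) was 1.82-fold above COLO 320, the next line, at 33.0 ± 1.15 (adjusted p = 5.44e-16). The errors of CDT1 were the largest of the 10 genes, with an SE of 0.048 in each line. The change was −0.21 in HCT 116 (adjusted p = 0.000302) and −1.10 in HT-29 (adjusted p = 3.36e-18), and it lay between −0.82 and −0.46 in the other lines. SW 480, COLO 205 and HCT-15 were not called different from one another in the change of CDT1 (adjusted p of 0.187 to 0.717 for the pairs), with differences of 0.03 to 0.10 in size and an SE of 0.068.

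MCM5, the subunit that closes the ring against MCM2, showed the lowest change of the 10 genes in 5 of 6 lines. HT-29 read 64.1, 63.4 and 60.6 RPKM with DMSO and 21.5, 21.5 and 21.6 RPKM with JQ1. HCT 116 read 106, 112 and 111 RPKM with DMSO and 59.2, 57.7 and 59.7 RPKM with JQ1. The fall was thus clear even in the line where most other members moved little, at −0.89 ± 0.026 in HCT 116 (adjusted p = 6.64e-22, limma) beside −1.52 ± 0.026 in HT-29 (adjusted p = 1.03e-27). SW 480 read 53.1, 51.7 and 53.2 RPKM with DMSO and 25.0, 24.1 and 25.6 RPKM with JQ1. HCT-15 went from 77.8, 79.4 and 80.9 RPKM to 32.3, 34.6 and 33.9 RPKM. In both lines no JQ1 library came near the DMSO range, and the folds were 2.09 and 2.34. COLO 205 went from 96.0, 94.6 and 98.0 RPKM to 41.7, 44.1 and 43.3 RPKM, and COLO 320 from 58.5, 58.3 and 58.9 RPKM to 34.5, 34.2 and 34.2 RPKM. COLO 205 was the exception in rank, with MCM10 (−1.42) and ORC1 (−1.23) below MCM5 (−1.15), and COLO 320 showed the smallest change of MCM5, −0.76. Among all tested genes, 1.22% had an average change as low as that of MCM5 or lower.

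**Figure D2:**
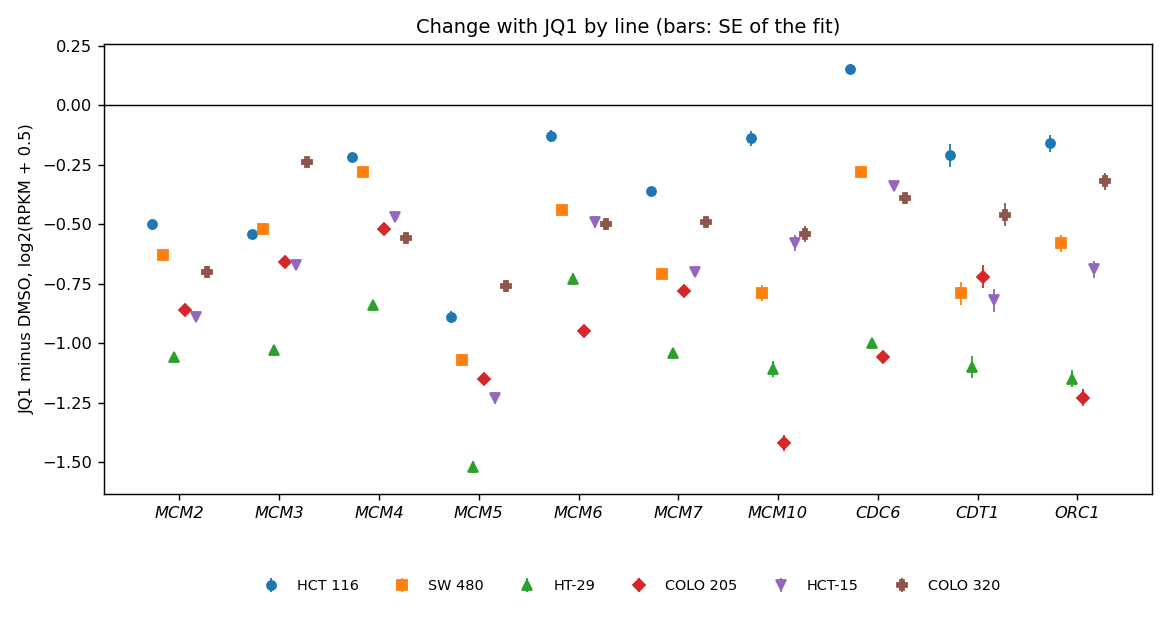
Change of each licensing gene in each line, JQ1 minus DMSO in log2(RPKM + 0.5), with bars for the standard error of the limma fit (3 libraries per group). The lowest point is that of COLO 205 for MCM6, MCM10, CDC6 and ORC1 and that of HT-29 for the other genes. HCT 116 points lie nearest 0 for 8 of 10 genes and COLO 320 points for MCM3 and MCM5. CDC6 in HCT 116 is the single point above 0 (0.15).

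MCM2, MCM4, MCM6 and MCM7 form the ring with MCM3 and MCM5, and MCM4, MCM6 and MCM7 make up its catalytic core. MCM2 fell in each line by 0.50 (HCT 116) to 1.06 (HT-29) on the log2 scale, from DMSO means of 97.8 to 151 RPKM. MCM7 fell by 0.36 (HCT 116) to 1.04 (HT-29), and MCM4 by 0.22 (HCT 116) to 0.84 (HT-29). MCM6 fell by 0.13 in HCT 116, from 85.0 ± 1.36 to 77.6 ± 1.94 RPKM (SD, n = 3, adjusted p = 3.54e-05), and by 0.95 in COLO 205, from 105 ± 1.54 to 54.1 ± 0.453 RPKM (adjusted p = 2.48e-23). The ring subunits therefore spanned a wide range of responses within HCT 116, from −0.89 for MCM5 to −0.13 for MCM6.

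MCM3 stood out by its level in COLO 205. The DMSO libraries of that line read 425, 413 and 417 RPKM, against group means of 92.5 to 143 RPKM in the other 5 lines. The 418 ± 6.04 RPKM mean (SD, n = 3) was 2.92-fold above HCT 116, the next line (adjusted p = 3.8e-33, limma), and 4.52-fold above SW 480, the lowest. With JQ1 the COLO 205 libraries read 265, 267 and 263 RPKM, all below their DMSO libraries and still above every library of the other lines. The change of −0.66 ± 0.017 there was close to that in HCT-15, −0.67, with a difference of 0.02 ± 0.024 (adjusted p = 0.616). COLO 320 gave the smallest change of MCM3, −0.24 ± 0.017 (adjusted p = 4.19e-13), from 106, 105 and 105 RPKM to 88.4, 89.4 and 88.9 RPKM.

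Because the ring holds its subunits in equal number, their transcripts were also set against each other within each library. The summed RPKM of MCM2 to MCM7, which corrects for gene length, was 774 ± 11.7 in DMSO-treated HCT 116 and 576 ± 6.92 with JQ1 (SD, n = 3). It went from 636 ± 9.60 to 314 ± 3.70 in HT-29 and from 1009 ± 7.80 to 599 ± 4.77 in COLO 205. The corresponding means were 713 and 473 in SW 480, 653 and 399.8 in HCT-15, and 558 and 385 in COLO 320. The sum was thus lower with JQ1 in each line, and its makeup shifted as well. MCM5 went from 14.2 ± 0.294% of the sum to 10.2 ± 0.0692% in HCT 116, from 12.2 ± 0.207% to 8.40 ± 0.204% in HCT-15 and from 9.86 ± 0.165% to 6.85 ± 0.0957% in HT-29. Its share was lower with JQ1 in 6 of 6 lines with no overlap between groups, by 1.60 percentage points in COLO 320 up to 3.97 in HCT 116. The share of MCM2 was also lower in 6 of 6 lines, although in SW 480 the groups overlapped (13.7% and 13.3%). MCM4 took a larger share in 5 lines, for example 16.4 ± 0.134% and 20.4 ± 0.237% in SW 480, and a smaller one in COLO 320 (18.2% and 17.8%). MCM3 held 41.5 ± 0.335% of the sum in COLO 205 with DMSO and 44.3 ± 0.0504% with JQ1. No test was run on the shares, which are not independent of one another.

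**Figure D3:**
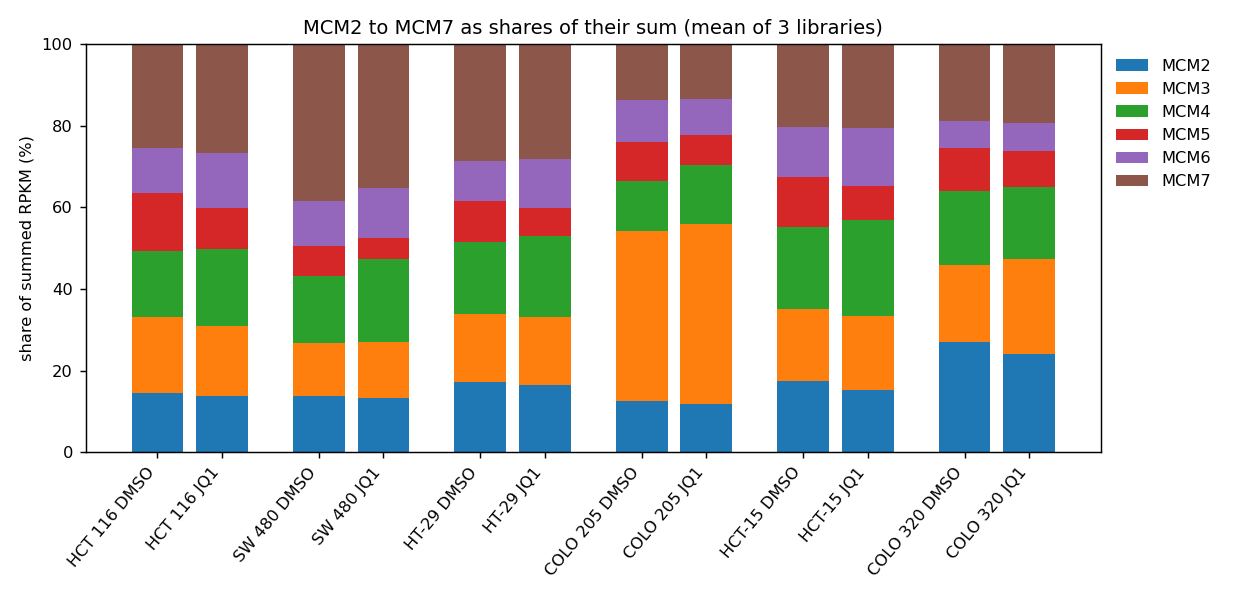
MCM2 to MCM7 as percentages of their summed RPKM in each group (stacked bars from 0 to 100, mean of 3 libraries). The MCM5 segment is narrower with JQ1 in all 6 lines, MCM3 takes over 41% of both COLO 205 bars, and MCM7 is the largest segment in SW 480 (38.4% with DMSO, 35.3% with JQ1).

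The most and least abundant ring subunit differed between lines. MCM7 led in HCT 116, SW 480, HT-29 and HCT-15 with DMSO, MCM3 in COLO 205 and MCM2 in COLO 320. MCM5 or MCM6 was lowest in each DMSO group, and MCM5 was lowest in each JQ1 group but COLO 320. The ratio of the highest to the lowest subunit in DMSO ran from 1.68 in HCT-15 to 5.20 in SW 480. It was larger with JQ1 in 5 lines, reaching 6.71 in SW 480 and 6.17 in COLO 205, and smaller in COLO 320, at 4.06 with DMSO and 3.56 with JQ1.

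MCM10, which helps the loaded helicase open DNA and ties it to DNA polymerase alpha, had the widest range of responses. COLO 205 read 15.2, 15.7 and 15.2 RPKM with DMSO and 5.23, 5.62 and 5.43 RPKM with JQ1. HCT 116 read 27.9, 28.1 and 28.3 RPKM with DMSO and 24.8, 26.4 and 25.0 RPKM with JQ1. The first pair of groups differed by 2.68-fold (−1.42 ± 0.033, adjusted p = 1.49e-24) and the second by 1.10-fold (−0.14 ± 0.033, adjusted p = 0.000355, limma). The difference between these 2 changes was 1.28 ± 0.047 (adjusted p = 2.37e-19). HT-29 came next after COLO 205 at −1.11, and the 2 differed (difference 0.31 ± 0.047, adjusted p = 1.68e-06). SW 480 followed at −0.79. HCT-15 (−0.58) and COLO 320 (−0.54) were not called different (difference −0.04 ± 0.047, adjusted p = 0.439). HCT 116 and HCT-15 held the highest DMSO levels, 28.1 and 25.8 RPKM, while the other lines lay between 12.7 and 15.4 RPKM.

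Levels in DMSO differed between lines for 10 of 10 licensing genes by limma's F test, as they did for 98.8% of all tested genes. MCM4 was the most even, from 102 RPKM in COLO 320 to 131 in HCT-15, a span of 1.29-fold, and MCM2 followed at 1.54-fold. MCM5 spanned 2.08-fold, from 52.7 RPKM in SW 480 to 109.8 in HCT 116, and MCM6 2.83-fold, from 37.1 in COLO 320 to 105 in COLO 205. MCM7 ranged from 105 RPKM in COLO 320 to 274 in SW 480, where it stood 1.39-fold above the next line, HCT 116 (adjusted p = 1.29e-20). CDC6 ranged from 29.8 RPKM in COLO 320 to 77.9 in COLO 205. COLO 320 was thus the lowest line for MCM4, MCM6, MCM7, CDC6 and ORC1 and the highest for MCM2, at 151 ± 2.74 RPKM (SD, n = 3). Neighbours in the order that did not differ beyond their spread were HCT-15 and HCT 116, and HCT 116 and HT-29, for MCM2; HT-29 and COLO 320 for MCM3; HCT 116 and COLO 205 for MCM4. The same held for HCT-15 and SW 480 in MCM6, COLO 320 and SW 480 in MCM10, and COLO 205 and HCT-15 as well as HCT 116 and SW 480 in CDC6. For CDT1 it held for COLO 320 and HT-29 and for SW 480 and HCT-15. Of the 15 pairs of lines, 12 (ORC1) to 15 (MCM5 and MCM7) were called in DMSO, where each pair was called for 77.7 to 87.1% of all genes.

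Responses differed between lines for 10 of 10 licensing genes, as for 93.3% of all tested genes. HCT 116 differed from each of HT-29, COLO 205, HCT-15 and COLO 320 in 10 of 10 genes, against 62.9, 64.5, 52.9 and 56.3% of all genes, and from SW 480 in 9 of 10, against 60.4%. MCM3 was the gene that did not pass there (−0.54 in HCT 116 and −0.52 in SW 480, difference −0.02 ± 0.024, adjusted p = 0.526). The 2 lines with the largest falls, HT-29 and COLO 205, differed in 8 of 10 genes, against 56.1% of all genes, with CDC6 and ORC1 not passing. Against this, SW 480 and HCT-15 differed in 5 of 10 (59.7% of all genes) and COLO 205 and HCT-15 in 5 of 10 (63.4%), shares no higher than the background. Over all 15 pairs of lines, 12 to 14 were called per gene, where each pair was called for 52.9 to 67.4% of all genes.

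Other genes of the pathway were taken from lists set by function. Of 9 tested genes for origin recognition and loading, 6 were called lower and 3 higher on average, against 48.3% and 40.2% of all genes, with a median of −0.18. With the cell line as the unit 3 were called lower, against 19.9% of all genes. Among the lower ones were geminin (GMNN, −0.47), the CDT1 inhibitor, MCMBP (−0.43), which binds MCM subunits, and ORC2 (−0.37). The higher ones were ORC4 at 0.47, LRWD1, an ORC-associated protein, at 0.37 and the histone acetyltransferase KAT7 at 0.19. ORC4 was higher in 6 of 6 lines (0.35 to 0.58), so subunits of the same complex as ORC1 went in both directions. LRWD1 and KAT7 did not pass with the cell line as the unit (adjusted p = 0.0551 and 0.132). GMNC, also listed, was under the low-value filter. In the small group of other MCM-named genes, MCM8 (−0.28, adjusted p = 0.0633 with the cell line as the unit) and MCM9 (−0.24) were lower, MCMDC2 was at −0.05 (adjusted p = 0.105) and MCM3AP, a nuclear export factor, was higher at 0.31 in 6 of 6 lines.

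Of 13 tested origin firing genes, 12 were called lower and 0 higher on average, against 48.3% and 40.2% of all genes, with a median of −0.33, and RECQL4 was at −0.03 (adjusted p = 0.0668). MTBP, a partner of TICRR in helicase activation, was at −0.96, CDC45 at −0.79, and the GINS subunits GINS1 and GINS3 at −0.75 and −0.71. MTBP went from 9.93 to 4.84 RPKM and CDC45 from 35.4 to 19.9 RPKM as means over the 18 libraries of each treatment. In HT-29 and in COLO 205, 13 of 13 were called lower, against 37.3% and 38.6% of all genes. The counts were 11 lower and 1 higher in HCT-15 (35.4% and 34.8%) and 10 and 1 in SW 480 (40.1% and 33.9%). They were 9 and 3 in HCT 116 (35.5% and 32.4%) and 9 and 0 in COLO 320 (37.2% and 31.0%). Of 9 genes that control the turnover of CDT1 and CDC6 protein, 5 were lower and 4 higher on average, shares near those of all genes. The ubiquitin ligase subunits SKP2 (−0.77), DTL (−0.56) and CUL4A (−0.42) and the inhibitor FBXO5 (−0.36) were lower, and DDB1 (0.16), RBX1 (0.09), FZR1 (0.08) and CUL4B (0.03, and −0.0064 with voom on recovered reads) were higher. With each cell line as 1 observation, none of those 4 passed (adjusted p = 0.077 for DDB1 to 0.808 for CUL4B).

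At the replication fork, 22 of 26 tested genes were called lower and 3 higher on average, against 48.3% and 40.2% of all genes. The median was −0.31, and 13 were called lower with the cell line as the unit, against 19.9% of all genes. By line, 25 were lower and 0 higher in HT-29, against 37.3% and 36.6% of all genes. The counts were 20 and 2 in COLO 205 (38.6% and 34.2%) and 19 and 4 in HCT-15 (35.4% and 34.8%). They were 18 and 4 in SW 480 (40.1% and 33.9%) and 14 and 6 in COLO 320 (37.2% and 31.0%). In HCT 116, 12 were lower and 9 higher, against 35.5% and 32.4%. The lowest on average were POLE2, the second subunit of DNA polymerase epsilon, at −1.28 and TIPIN of the fork protection complex at −0.90. Next came the clamp loader subunits RFC3 and RFC4 at −0.68 and −0.61. CHTF18 at 0.22, POLE at 0.15 and TIMELESS at 0.15 were higher and lost the call with the cell line as the unit (adjusted p = 0.153, 0.226 and 0.129). TIMELESS and TIPIN, partners in 1 complex, thus went in opposite directions. Of 18 genes of G2 phase and mitosis, 11 were called lower and 4 higher on average, against 48.3% and 40.2% of all genes, with a median of −0.16. With the cell line as the unit 5 were called lower, against 19.9% of all genes. By line, 18 were lower and 0 higher in HT-29, against 37.3% and 36.6% of all genes. The counts were 16 and 2 in HCT-15 (35.4% and 34.8%) and 12 and 4 in COLO 205 (38.6% and 34.2%). They were 11 and 6 in SW 480 (40.1% and 33.9%) and 8 and 7 in COLO 320 (37.2% and 31.0%). In HCT 116, 5 were lower and 7 higher, against 35.5% and 32.4%. The counts in COLO 320 and HCT 116 were near those shares. AURKA (−0.75), PLK1 (−0.63), BUB1B (−0.60) and cyclin B1 (CCNB1, −0.44) were lowest, while CENPE (0.13), CDC20 (0.09), BUB1 (0.08) and KIF11 (0.04) were higher. These 4 lost the call with the cell line as the unit (adjusted p = 0.324 for CENPE to 0.723 for KIF11), and KIF11 also with voom (0.411). The lists share no gene with the 10 licensing genes, and whether the licensing genes differ from them was not tested. The promoter letters shown above occurred in 4 of 9 origin firing genes with a window and in 7 of 22 fork genes. They occurred in 4 of 15 genes of G2 and mitosis, 2 of 9 genes of origin recognition and loading and 1 of 9 turnover genes. Of all tested genes with a window, 6.47% held them, so the letters were not particular to the licensing genes.

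**Figure D4:**
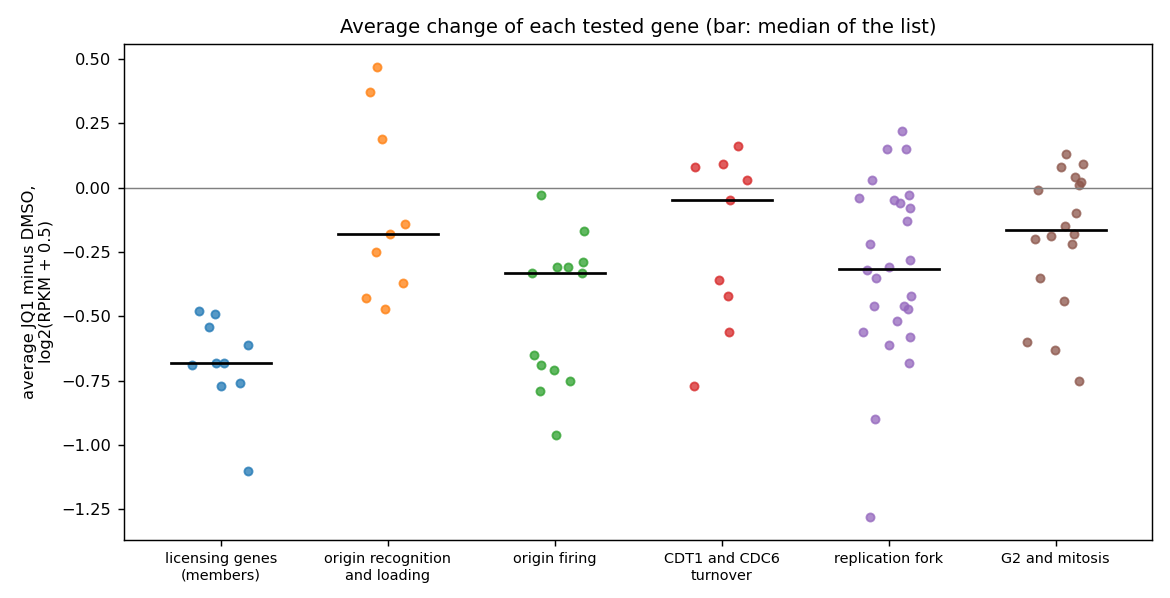
Average change over the 6 lines (JQ1 minus DMSO, log2(RPKM + 0.5)) of each tested gene in the licensing set and in 5 lists of related genes, with a bar at the median of each. All 10 licensing genes lie between −1.10 and −0.48, while every other list reaches above −0.05.

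Markers of cycling cells did not track the licensing genes in every line. MKI67, the Ki-67 antigen, went from 30.5 ± 1.17 to 38.0 ± 1.91 RPKM (SD, n = 3) in COLO 205, a change of 0.31 ± 0.047 (adjusted p = 8.5e-07, limma), while all 10 licensing genes fell there. TOP2A rose in the same line by 0.08 (adjusted p = 0.000797), and PCNA, which is also on the fork list, fell by 0.48 on the log2 scale. In COLO 320 TOP2A rose by 0.27, PCNA fell by 0.17 and MKI67 rose by 0.12 (adjusted p = 0.0248, and 0.0554 to 0.0817 when DMSO replicate 1 or 3 or JQ1 replicate 2 or 3 was left out). In HCT 116, where the licensing genes changed least, MKI67 was at −0.02 (adjusted p = 0.742), TOP2A at 0.08 and PCNA at 0.20. All 3 markers were lower in SW 480, HT-29 and HCT-15, with HT-29 lowest (MKI67 −0.49, TOP2A −0.45, PCNA −0.69). The summed level of the 3 went from 364 to 375 RPKM with DMSO to 409 to 417 with JQ1 in HCT 116, from 746 to 759 to 589 to 609 in COLO 205, and from 416 to 418 to 270 to 279 in HT-29. None of the 3 was at 0 in any group. The part of the share of cycling cells in the fall of the licensing genes was not tested.

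Depth was 18.8 to 53.1 M reads per library (median 24.5 M), and a licensing gene had 436 to 32299 reads per library, with a coefficient of variation of 0.248 to 7.67% within groups (median 1.73%). Summed colon epithelium markers (EPCAM, CDH1, KRT8, KRT18, KRT20, CDX2 and VIL1) lay between 888 and 8000 RPKM over all libraries. In COLO 320 the sum was nearly all CDX2. Its mean there was 1099 RPKM beside sums of 1150 to 1160 with DMSO, and 847.5 beside 888 to 921 with JQ1. In both groups 3 of the 7 markers were under 1 RPKM. On average 2 of the 7 were called lower and 5 higher, against 48.3% and 40.2% of all genes. With the cell line as the unit 0 were lower, and CDX2 and KRT18 lost the call as higher (adjusted p = 0.36 and 0.123). Whether CDH1 and KRT20 kept theirs was not examined, and their changes by line ran from −0.48 to 1.01 and from −0.60 to 1.91. The CDX2 change was 3.66 in COLO 205 and negative in 3 lines. In COLO 320 EPCAM was at 1.37 RPKM with DMSO and 0.0714 with JQ1. Endothelial markers summed to 0.2 RPKM or less, with 0 of 3 tested. Fibroblast markers reached 15.5 to 15.7 RPKM in COLO 320 with DMSO and 2.93 to 3.21 with JQ1, and 3.38 RPKM or less elsewhere. The 3 tested were called lower in COLO 320, against 37.2% of all genes, and in 0 of the other lines. Their call on the average was lost with the cell line as the unit (adjusted p = 0.317 to 0.68). Of the 2 leukocyte markers tested, CD68 was lower and PTPRC higher on average. Neither passed with the cell line as the unit (adjusted p = 0.357 and 0.684). The PTPRC change was 0.20 in COLO 320 and 0.01 or less in the other lines. The leukocyte sum was 156 to 161 RPKM in COLO 205 with DMSO, 101 to 109 with JQ1 and 6.81 or less in the other lines. In COLO 205, 3 of the 4 markers were under 1 RPKM, with PTPRC at 0.0, so the sum there was nearly all CD68. Of the 3 neuroendocrine markers 3 were called higher on average, against 40.2% of all genes, with sums of 8.7 to 48.3 RPKM. In COLO 320, 0 of the 3 were called lower or higher, against 37.2% and 31.0% of all genes. CHGA (0.08) lost its call with the cell line as the unit, voom or a pseudocount of 0.1 (adjusted p = 0.534, 0.839 and 0.358). Their part in the licensing results was not tested.

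Genes whose level over the 12 group means was most like the mean profile of MCM2 to MCM7 were ranked by Pearson's r, as a description. TPD52L1 came first (r = 0.959), followed by NDUFAF6 (0.949), NIF3L1 (0.947), UTP25 (0.926), C5orf34 (0.925), NOP16 (0.924), PHF5A (0.917) and the transcription factor E2F2 (0.910). Among the ring subunits themselves, MCM4 (0.940) and MCM5 (0.934) lay closest to the mean profile and MCM3 (0.654) and MCM7 (0.677) farthest, and outside the ring ORC1 (0.844) was closest and CDT1 (0.669) farthest. Each ring subunit is itself part of the mean profile, which raises its r, so its value cannot be set beside those of genes outside the ring. The 12 points share lines and treatment, so none of these values carries a p.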

How the data were processed

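RNA sequencing values for 36 libraries, 3 per line and treatment, were taken from the deposited table. Its values are RPKM per Entrez gene, computed by the authors. The tools GSNAP, DESeq and limma are listed, per the submitters' processing notes, along with NCBIM37, which is a mouse build, so no coordinates come from the files. Versions, strand and the counting rule are not given in the sources used here, and reads of genes overlapping a member on the other strand cannot be told apart. All value columns matched a sample (0 left over). Symbols came from a RefSeq gene table of GRCh38.p14 (24519 of 26468 genes).

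The 15542 genes that reached an RPKM of 1 in 3 or more libraries were tested as log2(RPKM + 0.5), a scale that understates changes of low genes, with limma 3.58.1 in R 4.3.3. All 12 groups shared 1 fit with a mean-variance trend (24 residual and 2.97 prior degrees of freedom). Contrasts were JQ1 minus DMSO per line, their mean, F tests between lines, and the 15 pairs of lines. All tests were two-sided, and Benjamini-Hochberg adjustment ran over all genes of a contrast. The fit was tested on simulated data. Read counts were recovered from the RPKM steps (whole within 0.01 read for 100% of 23499 genes), and reads per unit of the authors' divisor ran from 0.878 to 1.02. Chi-square per gene between replicates was 1.22 to 3.2, so none was counted as the same library. Python 3.11.15 was used with pandas 2.3.3 and matplotlib 3.10.9 for tables and plots.

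The members, lists and tests were chosen with earlier results of these data known. The text names the 10 members, in each list up to 4 genes of largest average change and those called against the list's majority, and the 8 genes most like the MCM profile. RECQL4 and GMNC were added after their values were seen. Alternatives were other pseudocounts, filters, scalings, voom on recovered reads, each line alone, the cell line as the unit, a replicate block and leaving out each library.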

Additional observations from a re-analysis of the deposited data

Results flagged for a closer look

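For each of the 10 licensing genes the change with JQ1 differed between the 6 lines in limma's F test of the difference itself, as it did for 93.3% of all tested genes. The adjusted p was 1.32e-23 for CDC6, whose change ran from −1.06 in COLO 205 to 0.15 in HCT 116 and was negative in 5 of 6 lines. It was 6.62e-19 for MCM10, with changes from −1.42 in COLO 205 to −0.14 in HCT 116, and 1.46e-17 for ORC1, with −1.23 and −0.16 in the same lines. For the ring subunits it was 9.22e-20 for MCM3 (−1.03 in HT-29 to −0.24 in COLO 320), 5.44e-19 for MCM4 (−0.84 to −0.22), 6.08e-19 for MCM7 (−1.04 to −0.36), 8.28e-17 for MCM6 (−0.95 to −0.13), 4.91e-16 for MCM5 (−1.52 to −0.76) and 1.47e-14 for MCM2 (−1.06 to −0.50). The largest was 2.06e-11, for CDT1 (−1.10 in HT-29 to −0.21 in HCT 116). Apart from CDC6, each gene was lower in 6 of 6 lines, so these differences are ones of size.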

How the results depend on the processing

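The 3150 values of single licensing genes computed under the alternatives all kept their direction and their side of the threshold, and the 402 counts of licensing genes were each identical to the reported one. The largest shift of a change was 0.152, with voom on recovered reads, and 0.143 with quantile scaling. Leaving out 1 library gave at most an adjusted p of 0.00482, for CDT1 in HCT 116 without DMSO replicate 3, and the increase of CDC6 in HCT 116 stayed between 0.13 and 0.17. Same-numbered DMSO and JQ1 libraries did not deviate together (r from −0.148 to 0.0492), so the numbers were not taken as pairs, and with the replicate block 10 of 10 licensing genes were again lower on average.

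Counts of listed genes called lower on average moved more. With the cell line as the unit they were 13 of the fork genes instead of 22, 5 of G2 and mitosis instead of 11, 3 of origin recognition and loading instead of 6 and 1 of the other MCM-named genes instead of 2. The colon epithelium, fibroblast, leukocyte and proliferation markers fell to 0 from 2, 3, 1 and 3. With no filter 2 leukocyte and 2 endothelium markers were lower, against 1 and 0. With an RPKM of at least 5 as the filter, 1 other MCM-named gene and 1 fibroblast marker were, against 2 and 3. Of 3189 values of named listed genes 3148 kept their call, 35 lost it, 4 gained it and 2 changed sign, COL1A1 to 0.0173 with quantile scaling and CUL4B to −0.0064 with voom. The cause was not tested. Each licensing gene had 436 or more reads in every library. Other lines, doses and times were not analysed here.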
